A study of Homo sapiens with 414 samples.

Results

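The clustered histone genes are the genes of the chromosome 6, 1 and 12 histone clusters, whose symbols begin HIST1H, HIST2H, HIST3H or HIST4H. A symbol was taken as a member where it reached 1 TPM in at least 5 libraries. TPM is the unit of a transcript's share of all transcripts of a library, corrected for its length. Of 70 such symbols among 19084 gene symbols, 65 were members. The 5 left out were HIST1H2BA, which reached 1 TPM in 0 libraries, HIST1H1A and HIST1H1T in 2 each, HIST1H2AA in 3 and HIST1H4G in 4. Just inside the limit were HIST1H2BB with 16 libraries and HIST1H4F and HIST3H3 with 23 each. The members comprise 4 linker histone H1 genes, 16 H2A, 17 H2B, 14 H3 and 14 H4 genes, of which 50 carry HIST1, 11 HIST2, 3 HIST3 and 1 HIST4 symbols.

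The series screened compounds for neurotoxicity in H1-NPC cultures, neural progenitors of the human embryonic stem cell line named H1, left to develop in a flat layer. Each compound was added at 1 dose on the day of seeding, and 1 well was lysed on each sampled day between day 1 and day 39. The data are 266 libraries of 29 compounds labelled toxic and 148 libraries of 16 compounds labelled non-toxic, with no untreated group analysed here. The replicates of a compound are thus single wells of different days. Fits of a compound against non-toxic libraries pool its wells with the far more numerous non-toxic wells. Their standard errors and p-values therefore mostly measure the spread between non-toxic wells, not the spread between the compound's own days. All compounds were compared with the same non-toxic libraries, so the comparisons share their controls.

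The toxic compounds described one by one were cadmium (50 µM), arsenic (5 µM), okadaic acid (3 nM), vincristine (1 nM), busulfan (50 µg/ml), cytosine beta-D-arabinofuranoside (AraC, 5 µM), 5-fluorouracil (10 µM) and hydroxyurea (250 µM). The first 6 had 5 libraries each, from days 1, 2, 3, 4 and 6, 5-fluorouracil had 7 and hydroxyurea 11. The panel also held (trans) retinoic acid (1.7 µM), Accutane or Isotretinoin (0.5 µg/ml), 2-imidazolidinethione (0.4 mM), amiodarone (1 µg/ml), benzene (50 µg/ml), bioallethrin (10 nM), Bis-I (4 µM), carbamazepine (10 µg/ml), dexamethasone (100 µM), diazinon (10 µM) and dioxin (3 nM). Its other toxic members were K252a (30 nM), L-phenylalanine (1 mM), lead acetate (30 µM), Maneb (60 µM, 1 library), monosodium glutamate (150 µM), PD166866 (2.5 µM), permethrin (2.5 µM), propylthiouracil (25 µg/ml), thalidomide (100 ng/ml) and U0126 (10 µM). The non-toxic compounds were acetaminophen (10 µg/ml), amoxicillin (5 µg/ml), aspirin and ibuprofen (20 µg/ml each), naproxen sodium (30 µg/ml), glucosamine (0.4 µg/ml) and PVP (100 µg/ml), DMSO at 0.1%, and Ficoll 400, fructose, glycerol, glyphosate, PEG 3350, saccharin, sorbitol and sucrose at 10 µM each.

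Replication-dependent histone genes lie in clusters without introns, are transcribed mainly in S phase, and supply the histones that package newly made DNA. Their mRNAs normally end in a conserved stem-loop bound by SLBP, not in a poly(A) tail, and are degraded when DNA synthesis stops. Some members also make polyadenylated mRNAs that read on past the stem-loop, in differentiated cells among others. The libraries were made with a TruSeq RNA kit, a protocol that usually selects poly(A) RNA, so the TPM describe the RNA of these genes that such a library retains, not their whole output.

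Promoters of 4 members on which the results turn are printed as the 250 bases before the gene's start, from RefSeq (GRCh38.p14), 5′ to 3′ on the gene's strand. Capitals mark the TATA box TATAAA, the CCAAT box CCAAT, the H1 box AAACACA and GTCCG, the core of the H4 subtype element, on either strand. HIST1H1E is at chr6:26156079-26156328 on the plus strand, HIST1H4E at chr6:26204360-26204609 on the plus strand, HIST1H2BK at chr6:27146859-27147108 on the minus strand and HIST2H2BE at chr1:149886683-149886932 on the minus strand.
HIST1H1E: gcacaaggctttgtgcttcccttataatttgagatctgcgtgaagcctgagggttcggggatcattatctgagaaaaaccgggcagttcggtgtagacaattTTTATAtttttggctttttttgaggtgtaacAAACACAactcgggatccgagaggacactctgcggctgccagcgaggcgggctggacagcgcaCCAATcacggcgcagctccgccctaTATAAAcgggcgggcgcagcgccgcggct
HIST1H4E: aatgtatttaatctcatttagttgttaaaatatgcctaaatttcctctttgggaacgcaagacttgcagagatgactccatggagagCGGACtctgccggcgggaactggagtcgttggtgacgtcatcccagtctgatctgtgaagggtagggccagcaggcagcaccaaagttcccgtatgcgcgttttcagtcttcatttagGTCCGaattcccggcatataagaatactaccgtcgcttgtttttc
HIST1H2BK: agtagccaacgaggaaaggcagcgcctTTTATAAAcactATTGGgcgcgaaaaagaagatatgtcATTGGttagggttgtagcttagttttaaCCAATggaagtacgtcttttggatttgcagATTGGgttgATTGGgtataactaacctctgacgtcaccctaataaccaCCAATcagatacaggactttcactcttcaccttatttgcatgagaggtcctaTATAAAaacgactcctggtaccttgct
HIST2H2BE: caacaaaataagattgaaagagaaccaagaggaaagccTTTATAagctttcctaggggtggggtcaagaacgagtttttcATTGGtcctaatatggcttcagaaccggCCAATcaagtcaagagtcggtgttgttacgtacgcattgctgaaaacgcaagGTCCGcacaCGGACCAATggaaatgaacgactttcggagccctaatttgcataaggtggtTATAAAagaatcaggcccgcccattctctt

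The 4 promoters differ in the letters they hold. HIST1H1E has 1 copy of the H1 box, HIST1H4E has 2 copies of GTCCG and no TATAAA or CCAAT, and HIST1H2BK has 6 copies of CCAAT. HIST2H2BE has 3 copies of CCAAT and 2 of GTCCG, and in CGGACCAAT a reverse GTCCG shares its last letter with a CCAAT. Promoters were matched for 60 of the 65 members. TATAAA stood in 39 of these 60 (65%), against 10.7% of all 35116 promoters of the table, and CCAAT in 51 (85%), against 32%. The classes differed in the boxes they held. CCAAT was in all 4 H1, 15 H2A, 17 H2B and 12 H3 promoters but in 3 of 12 H4 promoters (25%). AAACACA was in 4 of 4 H1 promoters and in no other member, against 4.82% of all promoters. GTCCG was in 12 of 12 H4 promoters and in 4 of the other 48, against 24.2% of all promoters. A match of letters is a description and not a binding site.

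The stem-loop that ends the replication-dependent mRNA was found in the annotated transcripts (GENCODE 29) of 31 members, with the stem in capitals.
HIST1H4E: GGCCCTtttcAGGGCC
HIST2H2BE: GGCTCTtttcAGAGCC
All 8 H4 genes with an annotated stem-loop carried the GGCCCT stem, and all 23 other members with one carried GGCTCT. The annotation went on for 1022 bases past the stem-loop in HIST1H4E and for 1729 bases in HIST2H2BE, so their annotated transcripts include read-through RNA. For 30 members the annotation ended at the stop codon, and no stem-loop could be looked for there. Matched members of the HIST1 cluster (45) lie between positions 26020451 and 27893891 of chromosome 6, those of HIST2 (11) between 149782689 and 149887965 and of HIST3 (3) between 228424845 and 228458558 of chromosome 1, and HIST4H4 at 14770720 to 14771131 of chromosome 12 (GRCh38.p14). The symbol pairs HIST2H2AA3 and HIST2H2AA4, HIST2H3A and HIST2H3C, and HIST2H4A and HIST2H4B had identical values in every library and are each 1 measurement. HIST1H4J and HIST1H4K shared reads unequally from library to library, so the split between them is uncertain.

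Across the whole series, 11377 to 17188 genes reached 1 TPM in a library, and read counts, hence depth, are unknown. The summed TPM of 8 neural progenitor markers was 6074 ± 103 (SD, n = 16) in non-toxic libraries of day 1, so the label of the cells is borne by their markers. The summed microglia markers did not exceed 38.4 TPM in toxic libraries, in vincristine on day 4, and 1.75 TPM in non-toxic ones. As a sign of RNA quality, the length trend gives how far a library departs from non-toxic libraries of its day per doubling of transcript length. It ran from -0.550 to 0.084 in toxic libraries and from -0.439 to 0.075 in non-toxic ones, the lowest of these being ibuprofen on day 8.

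In non-toxic cultures a few members made up most of the histone signal. The mean TPM of all members summed to 303.8, of which H1 genes held 15.5, H2A 95.0, H2B 129.5, H3 18.97 and H4 44.8. Only 7 members averaged at least 10 TPM over the 148 non-toxic libraries. HIST2H2BE (45.9 TPM), HIST1H2BD (32.3 TPM) and HIST1H2BK (31.6 TPM) encode H2B, HIST3H2A (37.9 TPM) and HIST1H2AC (16.5 TPM) encode H2A, HIST1H1C (14.5 TPM) encodes the linker histone H1.2 and HIST1H4K (13.1 TPM) encodes H4. HIST1H3E had the highest level of the H3 genes. HIST2H2BE, HIST3H2A, HIST1H2BD and HIST1H2BK held on average 15.1%, 13.2%, 10.7% and 10.1% of the members' sum. The linker gene HIST1H1E (H1.4) and HIST1H4E were low, with medians of 0.43 and 1.79 TPM over the 79 non-toxic libraries of days 1 to 6 and highest values of 3.02 and 7.11 TPM.

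**Figure D1:**
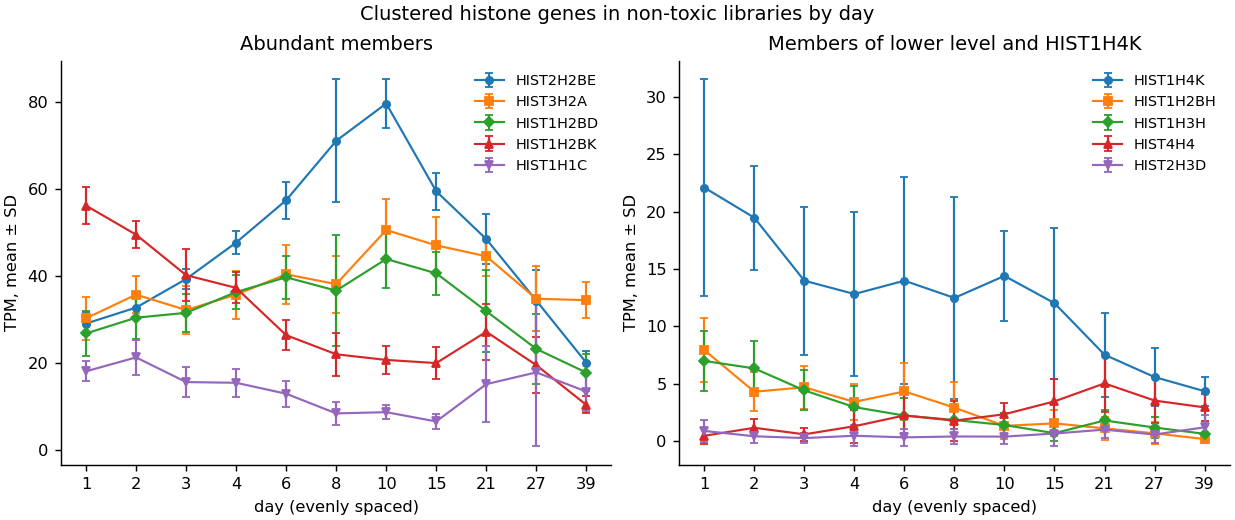
Mean TPM ± SD of 10 members over the non-toxic libraries of each day (7 to 16 libraries per day, days spaced evenly on the x axis). HIST2H2BE peaks on day 10 at 79.8 TPM, while HIST1H2BK is at 56.2 TPM on day 1, 20.7 TPM on day 10, 27.2 TPM on day 21 and 10.3 TPM on day 39.

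How the histone genes moved as the cultures developed was read from the non-toxic libraries, with day 10 (15 libraries) set against day 1 (16 libraries). The genes went in different directions. HIST2H2BE had 79.8 ± 5.54 TPM on day 10 (lowest 70.0, median 78.0, highest 89.4), against 29.1 ± 2.56 TPM on day 1 (21.3, 29.6 and 31.6). The days did not overlap, and the gene rose by 1.43 ± 0.06 (SE) on the scale of log2(TPM + 1), which all differences below use (limma adjusted p = 6.23e-50). HIST1H2BK, another H2B gene, had 20.7 ± 3.32 TPM on day 10 (15.99, 20.2 and 25.5), against 56.2 ± 4.34 TPM on day 1 (48.4, 55.4 and 63.6). Its days did not overlap either, and it fell, with a difference of -1.41 ± 0.09 (adjusted p = 3.54e-33).

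In all, 7 members rose and 21 fell by day 10, where 35.6% of all tested genes rose and 40.4% fell, at a limma p under 0.05 after Benjamini-Hochberg adjustment over 16318 genes. The median difference was -0.20 over the members and -0.02 over all genes. Rises besides HIST2H2BE were in HIST3H2A (50.6 ± 7.12 TPM on day 10 against 30.3 ± 4.99 on day 1) and HIST1H2BD (43.9 ± 6.64 against 26.8 ± 5.13 TPM), with differences of 0.73 and 0.70. HIST1H2AK rose by 0.77 and HIST4H4, the single gene of the fourth cluster, by 1.26, with 2.33 TPM on day 10 against 0.449 TPM on day 1. Falls were in every histone class, with 1 in H1, 5 in H2A, 6 in H2B, 6 in H3 and 3 in H4. HIST1H2BH had 1.31 ± 1.15 TPM on day 10 against 7.92 ± 2.77 TPM on day 1 (-2.04), HIST1H3H 1.39 against 6.98 TPM (-1.81), and HIST1H2AG and HIST2H2AC differed by -1.59 and -1.41. HIST1H1C had 8.64 ± 1.65 TPM on day 10 against 18.1 ± 2.31 TPM on day 1 (-0.99). HIST1H4E (-0.20, adjusted p = 0.501) and HIST1H1E (0.07, adjusted p = 0.715) did not pass.

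The cell cycle and the histone processing machinery moved over the same days. Of 14 S phase genes all 14 fell, as did all 14 G2 and mitosis genes, and 13 of 14 histone chaperones. The S phase sum was 722.4 TPM on day 10 against 3056 TPM on day 1. Of 14 genes for histone transcription and mRNA 3′ end formation, 4 rose and 9 fell. Of 12 replication-independent histone variants, which are made outside S phase, 3 rose and 7 fell. Of 8 members described as making polyadenylated mRNA, 2 rose (HIST2H2BE and HIST1H2BD) and 5 fell. Neuron markers rose in 10 of 10. In these bulk cultures, fewer dividing cells and less histone mRNA per cell cannot be told apart.

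Between day 10 and day 39 (14 libraries) the histone genes fell broadly. Of the 65 members 34 fell and 2 rose, where 34.9% of all genes fell and 43.6% rose, and the median was -0.40 over the members and 0.05 over all genes. Falls took in 3 of 4 H1, 9 of 16 H2A, 9 of 17 H2B, 6 of 14 H3 and 7 of 14 H4 genes. HIST2H2BE had 20.0 ± 2.65 TPM on day 39 (highest 25.0), against 79.8 ± 5.54 TPM on day 10, and fell, with a difference of -1.95 ± 0.06 (adjusted limma p = 1.22e-63). HIST1H2AK had 1.07 TPM on day 39 against 9.63 on day 10 (-2.43), HIST1H2BG differed by -2.37 and HIST1H3E by -1.87. HIST1H4K had 4.34 TPM on day 39 against 14.4 on day 10 (-1.52), and HIST1H4E 0.429 against 2.21 TPM (-1.02).

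HIST1H1C went the other way. It had 13.4 ± 4.49 TPM on day 39 against 8.64 ± 1.65 on day 10, a rise of 0.54 ± 0.17 (limma adjusted p = 0.00272). HIST1H1E fell by a small amount (-0.36, adjusted p = 0.0417), a call that was lost without ibuprofen (adjusted limma p = 0.062). S phase genes fell in 12 of 14 with 1 rise and G2 and mitosis genes in 14 of 14. Astrocyte markers rose in 8 of 8, to a sum of 4704 TPM on day 39 against 363.8 TPM on day 10, and mesenchymal markers in 8 of 8, to 7218 against 727.6 TPM. The members' sum was 156.7 ± 20.4 TPM on day 39 against 349.8 ± 28.8 TPM on day 10. The part of these other cell types in the histone falls was not tested.

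What set the toxic label apart from the non-toxic one was asked with 1 value per compound, its mean departure from non-toxic libraries of the same days. On days 1 to 6 (28 toxic and 16 non-toxic compounds) only HIST1H1E passed, and no member was lower, where 0.0981% of all genes were higher and 0.472% lower. At an unadjusted limma p under 0.05, 14 members were higher, HIST1H1E among them, and 3 lower. The share of all genes at this unadjusted threshold is not given. HIST1H1E averaged 1.31 ± 1.16 TPM over toxic compounds (lowest 0.184, median 0.995, highest 5.27), against 0.406 ± 0.215 over non-toxic ones (0.098, 0.394 and 1.03), a difference of 0.46 ± 0.11. The ranges overlapped, the adjusted limma p was 0.0451, and the call was lost with a pseudocount of 0.1, with no filter on low values, with the length trend as a covariate and without both retinoids. HIST1H4E differed by 0.36 (adjusted p = 0.19) and HIST2H2BE by -0.31 (adjusted p = 0.0985), and neither passed.

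On days 8 to 39 (21 toxic and 12 non-toxic compounds) 16 members were higher with the toxic label and 0 lower, where 5.12% of all genes were higher and 12.5% lower. At an unadjusted limma p under 0.05, 26 members were higher and 1 lower, and the share of all genes at this threshold is not given. The 16 were 3 H1, 3 H2A, 1 H2B, 3 H3 and 6 H4 genes. HIST1H4E averaged 4.23 ± 1.99 TPM over toxic compounds (lowest 1.22, median 3.77, highest 7.88), against 1.22 ± 0.484 TPM over non-toxic ones (0.37, 1.11 and 2.08). HIST1H1E averaged 2.36 ± 1.15 TPM over toxic compounds (0.54, 2.26 and 4.80), against 0.392 ± 0.214 over non-toxic ones (0.162, 0.33 and 0.918). For both genes the toxic range reached well above the non-toxic one and overlapped it at the low end. The differences were 0.86 ± 0.12 for HIST1H4E (adjusted limma p = 3.47e-05) and 0.81 ± 0.11 for HIST1H1E (adjusted limma p = 4.25e-05).

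Next by size were HIST1H3B, an H3 gene (1.36 TPM in the toxic group against 0.312 in the non-toxic, 0.55 ± 0.10), HIST1H1B, which encodes H1.5 (1.23 against 0.282 TPM, 0.49 ± 0.09), and HIST1H2AE (4.29 against 2.38 TPM, 0.45 ± 0.10). The abundant members did not pass, with HIST2H2BE at -0.10, HIST3H2A at -0.11 and HIST1H1C at 0.12. The count of 16 fell to 6 with the length trend as a covariate, to 4 without libraries of a trend below -0.1, and to 2 without days 15 and 21. Shares of all genes under these settings are not given, so whether members lost calls more than other genes cannot be told. On those days the toxic length trend had medians of -0.063 and -0.186, against -0.1 as the limit set for single libraries.

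**Figure D2:**
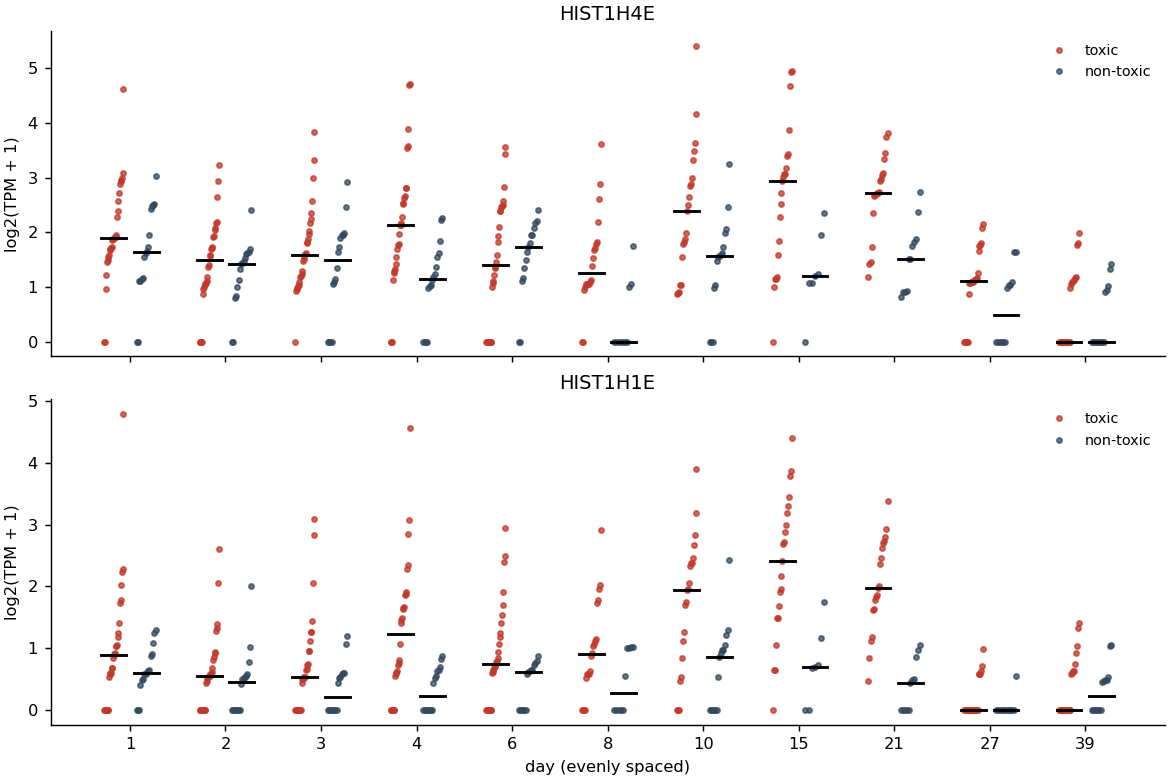
HIST1H4E and HIST1H1E as log2(TPM + 1) in every library by day, toxic libraries to the left in red and non-toxic to the right in dark, bars at the medians. On day 15 the toxic and non-toxic medians are 6.66 and 1.30 TPM for HIST1H4E, and 4.31 and 0.62 TPM for HIST1H1E.

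On days 1, 2 and 3, 2 of 29, 3 of 28 and 3 of 28 toxic libraries had more HIST1H4E than any non-toxic library of the day, and 7, 2 and 6 had more HIST1H1E. On day 4, 12 of 28 toxic libraries had more HIST1H4E than any of the 16 non-toxic ones, and 15 of 28 more HIST1H1E. On day 6 it held for 11 of 28 with HIST1H1E. It held for 7 of 28 with HIST1H4E on that day, although the toxic median of 1.66 TPM was below the non-toxic one of 2.33 TPM. On day 15 this held for 13 of 21 toxic libraries with HIST1H4E, where the toxic median was 6.66 TPM against 1.30 TPM in non-toxic libraries, and for 14 of 21 with HIST1H1E (4.31 against 0.62 TPM). On day 21 it held for 8 of 19 with HIST1H4E (5.60 against 1.86 TPM) and for 17 of 19 with HIST1H1E (2.95 against 0.35 TPM). On day 39 it held for 3 and 2 of 22. On days 8, 10 and 27 it held for 6 of 20, 5 of 21 and 6 of 22 with HIST1H4E, and for 9, 5 and 6 with HIST1H1E. Non-toxic libraries numbered 10, 15, 7, 11, 12 and 14 on days 8, 10, 15, 21, 27 and 39. Fewer libraries are more easily exceeded, so counts of different days are not directly comparable. HIST2H2BE was below the lowest non-toxic library in 13 of 29 toxic libraries on day 1, 16 of 28 on day 2 and 17 of 28 on day 3. The count was 13 of 28 on day 4, 9 of 28 on day 6, 0 of 20 on day 8, 7 of 21 on day 10, 10 of 21 on day 15 and 11 of 19 on day 21. On days 27 and 39 only 1 and 3 of 22 were below it, while 3 and 6 were above the highest non-toxic library.

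Each of 28 toxic compounds was then compared with non-toxic libraries of matched days, Maneb with its 1 library being left out. Over these fits the members had 217 higher and 85 lower calls among 1820 tests, or 11.9% and 4.67%, where 14.1% of all genes were called higher and 17.9% lower. Calls lower were thus fewer among members than among genes at large, and calls higher about as frequent. Members near 0 TPM can hardly be called lower, so the share of lower calls depends on their level. As background, each of the 16 non-toxic compounds was fitted against the others, which gave 3 higher and 2 lower calls among 1040 tests (0.288% and 0.192%, with 0.157% and 1.85% for all genes), all from ibuprofen. At least 1 compound raised 57 of the members and at least 1 lowered 25, and HIST1H2BB, HIST1H4J, HIST1H4K and HIST2H2AB had no call. Of the 65 members, HIST1H4F, HIST3H3 and HIST1H2BB passed the filter on low values only through toxic libraries, since 2, 3 and 1 non-toxic libraries reached 1 TPM, so their higher calls support nothing. Over the other 62 members there were 209 higher and 85 lower calls, and 55 members had a higher call. Higher calls were then 37 in cadmium, 26 in arsenic, 25 in vincristine, 6 in dioxin, 4 in lead acetate and 1 in busulfan, and unchanged in the other compounds. Counts below keep all 65 members unless stated. The share of all genes with a call for at least 1 compound is not given, so the counts of 57, 25 and 55 do not set the members apart.

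**Figure D3:**
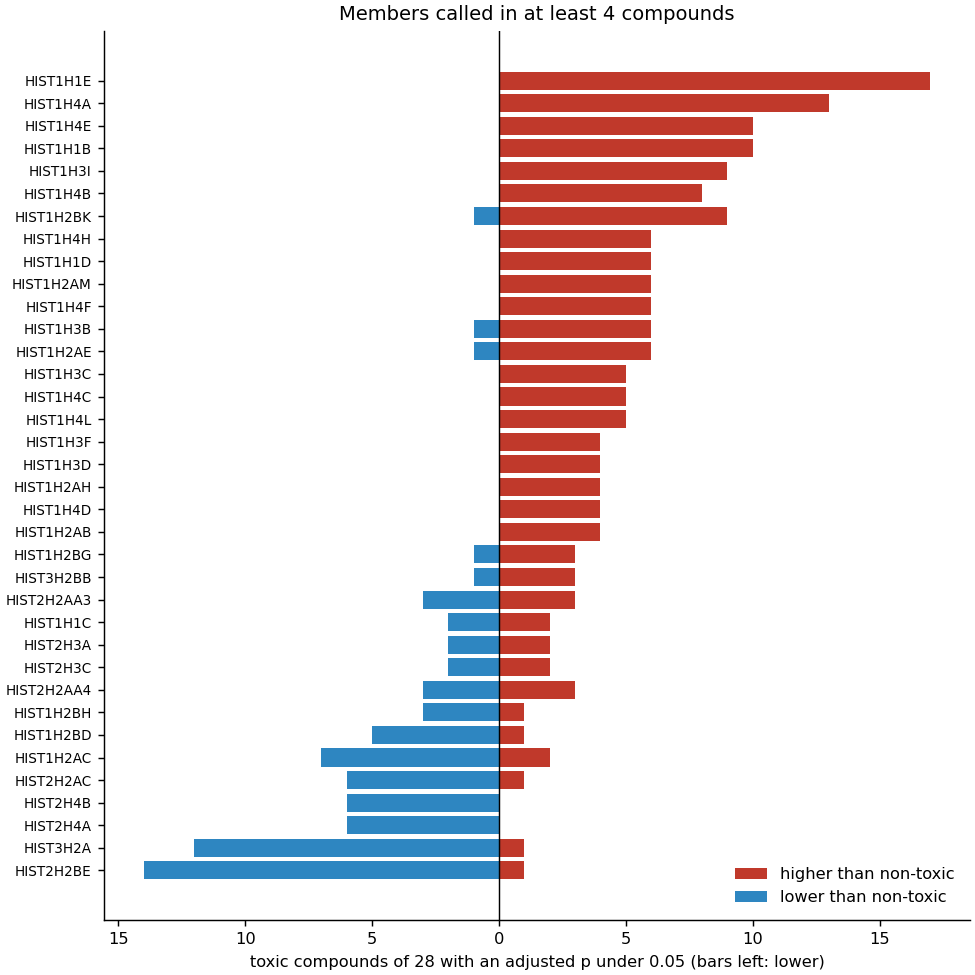
Number of the 28 toxic compounds in which a member was called higher (bars to the right) or lower (bars to the left) than in same-day non-toxic libraries, for members with at least 4 calls. HIST1H1E leads the higher calls with 17, and HIST2H2BE the lower ones with 14.

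The members with most higher calls were mainly low genes, and those with most lower calls included the most abundant ones. HIST1H1E was called higher for 17 compounds and lower for 0, and its difference was positive for 26 of 28, with a median of 0.68. HIST1H4A followed with 13 higher calls, HIST1H4E and HIST1H1B with 10 each, HIST1H3I with 9 and HIST1H4B with 8, all with 0 lower. Genes this low have little room to fall, so their 0 lower calls say little. HIST1H4A, HIST1H4B and HIST1H3I were listed at 0 TPM in 319, 334 and 281 of the 414 libraries. HIST1H2BK was the abundant exception, with 9 higher calls and 1 lower. On the other side HIST2H2BE was called lower for 14 compounds and higher for 1, HIST3H2A for 12 and 1, HIST1H2AC for 7 and 2, HIST2H2AC for 6 and 1 and HIST1H2BD for 5 and 1.

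The other compounds differed in how many members they moved. Benzene raised 10 members and lowered 0, where 3.17% of all genes were higher and 3.16% lower. Dioxin raised 8 (6 over the 62 members) and lowered 3 (2.95% and 13.9% of all genes), thalidomide 7 and 1 (1.53% and 7.65%), carbamazepine 6 and 1 (1.96% and 2.94%) and monosodium glutamate 5 and 1 (0.582% and 7.8%). (trans) Retinoic acid raised 19 and lowered 2 (21.2% and 26.4%), beside 6 and 4 for Accutane or Isotretinoin (20.2% and 21%). The kinase inhibitor Bis-I raised 13 and lowered 6 (10.2% and 32.3%). Lead acetate had the opposite balance, with 5 higher (4 over the 62 members) and 10 lower (19.6% and 22.4%), and U0126, a MEK inhibitor, had 0 higher and 2 lower (6.55% and 15.3%). With both compounds members were called less often than genes at large in either direction. Amiodarone raised 7 members and lowered 3 (5.29% and 17.4% of all genes), K252a, a kinase inhibitor, 6 and 0 (18.7% and 16.7%), and PD166866 5 and 2 (8.98% and 15.1%). Few calls were made for diazinon, with 3 higher and 0 lower (0.895% and 1.4%), 2-imidazolidinethione, with 2 and 0 (0.178% and 0.306%), and dexamethasone, with 1 and 1 (4.79% and 8.68%). Bioallethrin and permethrin had 1 higher and 0 lower each (0.0858% and 0.0797%, and 0.3% and 0.717%), and propylthiouracil 1 and 1 (0.0613% and 0.11%). L-phenylalanine, an amino acid, had 0 members called by limma, where 0.0613% of all genes were called higher and 0% lower. At an unadjusted limma p under 0.05, 14 members were higher and 0 lower. The share of all genes at that unadjusted threshold is not given, so these 14 do not set the members apart. Whether a compound's difference changed with time was tested for the 21 compounds with both early (days 1 to 6) and late (days 8 to 39) libraries. The late difference was above the early one in 38 member tests and below it in 20, or 2.78% and 1.47%, where this held for 7.43% and 6.84% of all gene tests.

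Cadmium gave the highest count of any compound. It raised 39 members and lowered 6, where 24.6% of all genes were higher and 59.4% lower, and the median was 0.82 over the members and -0.40 over all genes. Rises covered 3 of 4 H1, 9 of 16 H2A, 10 of 17 H2B, 10 of 14 H3 and 7 of 14 H4 genes. HIST1H2BK had 56.8, 100.4, 131, 166 and 90.9 TPM on days 1, 2, 3, 4 and 6 in cadmium, against 19.9 to 63.6 TPM (median 41.4) in the 79 non-toxic libraries of these days. Day 1 lay inside the non-toxic range of that day and the other 4 days above all non-toxic libraries, with a difference of 1.32 ± 0.11 (adjusted limma p = 3.56e-19). HIST2H2AA3, an H2A gene, had 13.9, 47.8, 70.3, 96.5 and 38.2 TPM in cadmium, against 5.33 to 15.4 TPM (median 10.1) in non-toxic libraries, and rose by 2.05 ± 0.15 (adjusted p = 1.20e-21). Here too the levels climbed to day 4, and only day 1 overlapped the non-toxic range.

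Members that are low in non-toxic cultures were also higher with cadmium. HIST1H4E had 6.74, 8.41, 8.99, 10.9 and 9.74 TPM in cadmium, against 0 to 7.11 TPM (median 1.79) in non-toxic libraries, a rise of 1.94 ± 0.36. The day 1 value lay within the non-toxic range. HIST1H1E had 3.89, 5.11, 6.14, 6.18 and 1.27 TPM, against 0 to 3.02 TPM (median 0.43), a rise of 1.93 ± 0.21. HIST1H2AH had 3.43, 3.55, 9.51, 6.89 and 6.32 TPM and rose by 2.23, HIST1H2BN rose by 2.09 and HIST1H1D, which encodes H1.3, by 1.59. With the length trend as a covariate the rises of HIST1H4E and HIST1H2AH were 0.90 (adjusted p = 0.51) and 0.95 and no longer passed.

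The lower members in cadmium were abundant ones. HIST1H1C had 5.29, 4.12, 3.31, 7.32 and 13.6 TPM, against 8.08 to 29.9 TPM (median 16.5) in non-toxic libraries, and fell, with -1.29 ± 0.15. Its first 4 days lay below all non-toxic libraries, and day 6 within their range. HIST2H4A and HIST2H4B differed by -1.26 and HIST1H2AC by -1.13. HIST2H2BE, with 12.6, 24.6, 37.4, 51.4 and 27.7 TPM, and HIST3H2A, with 13.2, 18.1, 33.3, 36.9 and 30.0 TPM, were lower by -0.50 and -0.46. After centring each library on the median of genes that average at least 10 TPM, these last 2 differences turned to 0.16 and 0.20, and with the length trend as a covariate that of HIST2H2BE was 0.072. Centring shifted cadmium values by 0.66. It shifted arsenic values by 0.32 and vincristine values by 0.20. The centred split for cadmium was 51 higher and 4 lower. Shares of all genes are uncentred throughout, for cadmium and for every other comparison. Shares after centring are not given, so no centred count of members can be set against a background.

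Arsenic raised 27 members and lowered 9, where 34.8% of all genes were higher and 46.7% lower, with a median of 0.28 over the members and -0.11 over all genes. After centring, 37 were higher and 5 lower. HIST1H2BK had 129.5, 204, 212, 211 and 174 TPM on days 1, 2, 3, 4 and 6 in arsenic, all above the highest of the 79 non-toxic libraries (63.6 TPM), and rose by 2.15 ± 0.09 (adjusted limma p = 1.10e-36). HIST2H2AA3 had 28.3, 28.1, 44.2, 48.8 and 34.4 TPM, again all above the non-toxic libraries, and rose by 1.74 ± 0.11. HIST1H2BG had 10.3, 27.1, 26.9, 34.8 and 20.0 TPM and rose by 1.81, and HIST1H2BN rose by 1.95.

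HIST2H2BE, the other abundant H2B gene, went down while HIST1H2BK went up. It had 19.9, 15.5, 18.1, 18.1 and 13.9 TPM in arsenic, against 21.3 to 63.1 TPM (median 38.9) in non-toxic libraries, all 5 below the lowest non-toxic library, and fell, with -1.19 ± 0.07. HIST3H2A had 14.1, 14.8, 13.9, 18.95 and 10.1 TPM, against 20.3 to 53.5 TPM (median 33.4), also without overlap, and fell, with -1.22 ± 0.11. HIST2H4A fell by 1.30 on the log2 scale, a call lost with the length trend as a covariate (-0.19). HIST1H1C (0.22, adjusted limma p = 0.141) did not pass in arsenic, and its difference was -0.76 with that covariate. HIST1H1E was present at 3.06, 3.17 and 3.16 TPM on the first 3 days and listed at 0 on days 4 and 6.

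**Figure D4:**
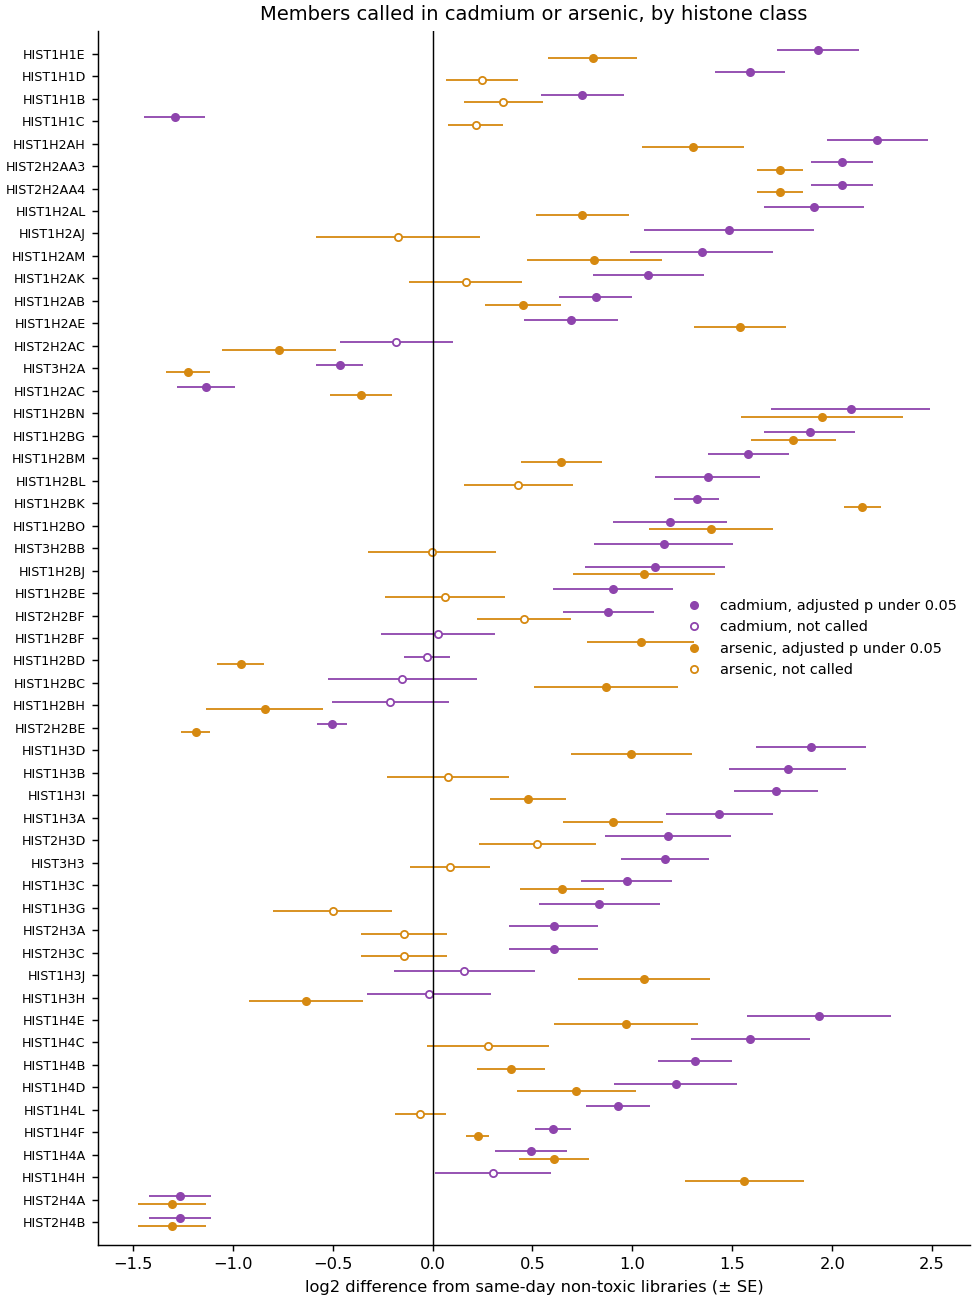
Log2 difference ± SE from same-day non-toxic libraries for members called with cadmium or arsenic, grouped by histone class, filled points for called members. HIST1H2BK and HIST2H2AA3 stand high for both metals, and HIST1H1C stands at -1.29 with cadmium and 0.22 with arsenic.

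The cell cycle lists fell with both metals. Of 14 S phase genes 13 fell and 1 rose in each, and of 14 G2 and mitosis genes 14 fell in each. In cadmium all 14 histone chaperones and all 14 histone 3′ end and transcription genes fell. Mesenchymal markers went apart, with 8 of 8 lower in cadmium and 8 of 8 higher in arsenic, and p53 targets had 5 higher and 5 lower in cadmium and 12 higher in arsenic. The length trend was -0.141 to -0.089 in cadmium and -0.190 to -0.047 in arsenic libraries. With it as a covariate 21 and 19 members were called, in place of 45 and 36, and the shares of all genes with this covariate are not given.

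Set directly against each other on matched days, cadmium and arsenic differed in 14 members that were higher and 7 that were lower with cadmium, where 15.7% of all genes were higher and 31.8% lower. Over the 62 members 13 were higher and 7 lower. After centring the split over all members was 27 and 2. HIST1H3B was 1.70 higher with cadmium, HIST1H1D 1.34, HIST1H3G 1.33, HIST1H1E 1.13 and HIST1H4E 0.97 ± 0.22 (adjusted limma p = 0.00783). HIST1H1C was lower, by -1.51 ± 0.23 (adjusted p = 0.00142), and so was HIST1H4H, by -1.26, a call lost after centring. For HIST2H2AA3 the difference was 0.31 ± 0.27 and did not pass. The doses were 50 µM and 5 µM. Without the day 3 pair 6 members were called and without the day 4 pair 12, against 21 with all days.

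Okadaic acid, an inhibitor of protein phosphatases, had more members called lower than higher, but both less often than genes at large. It raised 3 and lowered 14, where 35.1% of all genes were higher and 39.8% lower, with a median of -0.12 over the members and -0.04 over all genes. HIST2H2BE had 8.46, 11.2, 12.2, 11.8 and 13.7 TPM on days 1, 2, 3, 4 and 6, against 21.3 to 63.1 TPM in non-toxic libraries, and fell, with -1.73 ± 0.05 (adjusted limma p = 5.63e-45). No day came near the non-toxic range. HIST1H2BK had 28.95, 38.6, 56.5, 56.3 and 82.1 TPM, below the non-toxic range of day 1 (48.4 to 63.6 TPM) and above that of day 6 (19.9 to 31.7 TPM), and the mean difference was 0.28 ± 0.12. Its daily differences ran from -0.93 to 1.61, a spread that this SE hardly reflects. HIST3H2A was lower by -0.66, HIST1H2AG by -1.61 and HIST1H4I by -1.14, and HIST1H3D was higher by 0.84. All 14 S phase genes, all 14 G2 and mitosis genes and all 10 neuron markers fell. The count of 17 was 10 with the length trend as a covariate, and 11 without libraries of a trend below -0.1.

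**Figure D5:**
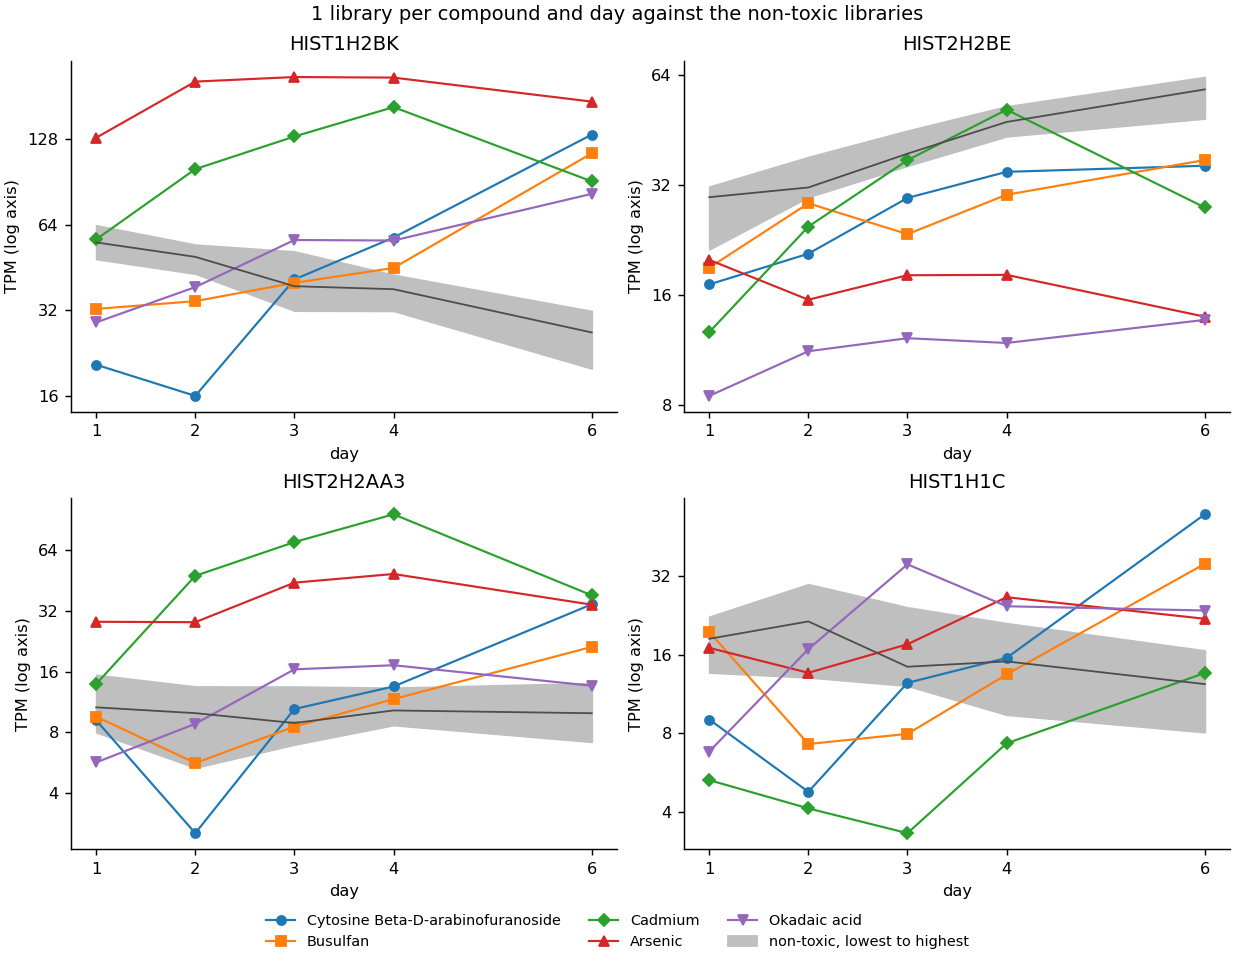
TPM of HIST1H2BK, HIST2H2BE, HIST2H2AA3 and HIST1H1C on a log axis on days 1 to 6 for 5 toxic compounds, 1 library per point, with a grey band from the lowest to the highest non-toxic library and its median. HIST1H2BK lies above the band with arsenic on every day, and crosses it from below with AraC and okadaic acid.

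Agents that damage DNA or block its synthesis formed a second group. AraC, a nucleoside analog that stalls DNA polymerases, raised 1 member and lowered 7, where 40.9% of all genes were higher and 27.2% lower, and 0 and 8 after centring. Behind this mean lay a climb over the days. HIST1H2BK had 20.5, 15.95, 41.0, 57.6 and 132.8 TPM on days 1, 2, 3, 4 and 6 in AraC, against same-day non-toxic means of 56.2, 49.5, 40.2, 37.3 and 26.4 TPM. It lay below all non-toxic libraries on days 1 and 2 and above all of them on days 4 and 6. HIST1H1C had 9.04, 4.77, 12.5, 15.6 and 55.5 TPM, against non-toxic means of 18.1, 21.3, 15.6, 15.4 and 12.9 TPM. HIST1H2BC had 0, 0.93, 5.30, 4.08 and 16.97 TPM and HIST1H3H 0.90, 1.52, 2.72, 4.73 and 6.05 TPM.

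A trend of the difference with day, a comparison chosen after these values were seen, had 18 members rising and 0 falling in AraC, where 23.2% of all genes rose and 22.7% fell. Per day HIST1H2BC gained 0.85, HIST1H2BK 0.80 ± 0.04, HIST1H3H 0.71 and HIST1H1C 0.69 ± 0.08. Of the 8 members described as making polyadenylated mRNA 7 rose, the exception being HIST2H2BE (0.02, adjusted limma p = 0.657). HIST2H2BE had 17.1, 20.7, 29.5, 34.7 and 36.1 TPM, below the non-toxic mean on all 5 days, and its mean difference was -0.57 ± 0.05. HIST3H2A, with 9.70, 13.1, 11.01, 29.3 and 22.97 TPM, was lower by -1.08 ± 0.12, HIST1H2BH by -1.69 and HIST2H2AC, which was listed at 0 from day 3 on, by -1.54. p53 targets rose in 12 of 12 and mesenchymal markers in 8 of 8, S phase genes split into 7 higher and 7 lower, and 13 of 14 G2 and mitosis genes fell. Without the day 6 library 13 members were called in the mean comparison, against 8 with it.

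Busulfan, which alkylates and crosslinks DNA, gave a similar course for some of the same genes. HIST1H2BK had 32.3, 34.4, 39.9, 45.0 and 114.1 TPM, again below all same-day non-toxic libraries on days 1 and 2 and above them on days 4 and 6. HIST1H3H had 0.89, 3.86, 5.54, 4.66 and 8.67 TPM and HIST1H1C 19.6, 7.28, 7.96, 13.5 and 35.8 TPM. The trend with day was upward for 9 members and downward for 3, where 22.9% of all genes rose and 19.2% fell. HIST1H3H gained 0.71 per day, HIST1H2BC 0.60, HIST1H2BK 0.57 ± 0.04 and HIST1H1C 0.37, while HIST1H2BH, with 8.02, 2.18, 0.89, 0 and 0 TPM, lost 0.48 per day. Without day 6 the slope of HIST1H1C was -0.03, and 7 members were called in place of 12. For cadmium the trend was upward for 13 members and downward for 3 (39.7% and 14.9% of all genes), and for 6 and 5 after centring. Over the 62 members it was upward for 12 and downward for 2. Without day 1 or day 4 of cadmium 10 members had a trend, and without day 6 24.

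In the mean comparison busulfan raised 2 members and lowered 6 (29.5% and 35.1% of all genes), or 4 and 6 after centring. HIST2H2BE had 18.98, 28.5, 23.5, 30.1 and 37.4 TPM, with the means of the non-toxic libraries at 29.1, 32.7, 39.3, 47.7 and 57.5 TPM, and fell, with -0.55 ± 0.05 (adjusted limma p = 1.49e-15). HIST3H2A, with 26.5, 24.5, 20.5, 23.1 and 19.1 TPM, was lower by -0.58. Without the day 4 library 3 members were called, against 8 with all days. The AraC and busulfan comparisons share their controls.

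5-Fluorouracil, which blocks thymidylate synthesis, raised 11 members and lowered 1, where 39.6% of all genes were higher and 19.1% lower, and 7 and 4 after centring. HIST1H2AC had 20.8, 20.9, 23.2, 26.2, 28.8, 39.5 and 47.0 TPM on days 1, 2, 3, 4, 6, 27 and 39, against non-toxic means of 19.6, 18.8, 17.3, 22.6, 19.2, 11.1 and 6.19 TPM, and rose by 0.88 ± 0.17 (adjusted limma p = 5.41e-06). On the log2 scale its gap was 0.12 to 0.58 on days 1 to 6, 1.82 on day 27 and 2.81 on day 39. HIST1H4H rose by 1.04 and HIST1H2AK by 1.00, and the HIST1H2AK gap was -0.57 to 0.95 on days 1 to 6 and 2.15 and 3.34 on days 27 and 39. HIST1H1E rose by 0.70, with 0.49 to 4.12 TPM. HIST2H2BE had 23.97, 34.2, 50.1, 42.7, 45.2, 51.1 and 51.0 TPM, against non-toxic means of 29.1, 32.7, 39.3, 47.7, 57.5, 34.4 and 20.0 TPM. It was below the non-toxic mean on days 1, 4 and 6 and above it on the other days. Its mean difference was 0.22, the single compound for which it was called higher, and the call was lost after centring.

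Without the libraries of days 27 and 39, an alternative chosen after the data were seen, 2 members were higher and 4 lower, where 35.5% of all genes were higher and 16.5% lower. There HIST2H2BE was at -0.07 ± 0.06 (adjusted limma p = 0.32). HIST1H2AC (0.31), HIST1H4H (0.64) and HIST1H2AK (0.31) no longer passed, with adjusted limma p of 0.066, 0.063 and 0.38. HIST1H1E (0.67, adjusted limma p = 0.0048) and HIST1H4C (0.73) were the 2 higher members. The HIST1H1E rise leaned on day 4, with 4.12 TPM and a log2 gap of 2.03. On days 1, 2, 3 and 6 its gap was -0.02 to 0.60, and no fit without day 4 was made. Over all 7 libraries, of the 8 members described as polyadenylated 5 rose and 0 fell. No member of these 8 was called without days 27 and 39, with HIST1H2BK at -0.03 and HIST1H2BD at 0.08. The 5 rises thus depended on the late libraries. All 14 S phase genes and all 14 G2 and mitosis genes fell over all 7 libraries.

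Hydroxyurea, which depletes deoxynucleotides by inhibiting ribonucleotide reductase, raised 2 members and lowered 3 (28.9% and 23.2% of all genes), or 2 and 6 after centring. HIST2H2BE had 16.9 TPM on day 1, 39.0 TPM at its highest on day 15, 22.9 TPM on day 39 and a median of 32.9 TPM over its 11 days. The non-toxic mean was 29.1 TPM on day 1, 79.8 on day 10 and 20.0 on day 39, so the deficit was greatest on day 10, where the non-toxic libraries peaked, and on days 27 and 39 hydroxyurea stood 0.05 and 0.19 above the mean on the log2 scale. The mean difference was -0.54 ± 0.07 (adjusted limma p = 7.07e-13). HIST2H2AC was lower by -0.69 and HIST3H2A by -0.27, and HIST1H3G and HIST1H2AE were higher by 0.48 and 0.45. Here the cell cycle lists went up, with 14 of 14 S phase and 14 of 14 G2 and mitosis genes higher, and 10 of 14 histone chaperones higher with 1 lower, as did all 12 p53 targets and all 8 mesenchymal markers.

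The 3 agents were compared in pairs on days 1 to 6, 5 libraries against 5, at the doses given above. With AraC 0 members were higher and 3 lower than with 5-fluorouracil, where 16.7% of all genes were higher and 10.7% lower. The 3 were HIST3H2A (-1.11), HIST1H4C (-1.10) and HIST2H2BE (-0.50). With hydroxyurea 1 member was higher and 4 were lower than with 5-fluorouracil (10.8% and 11.9% of all genes), or 2 and 4 after centring. HIST1H3G was higher by 1.62, and HIST1H1E (-0.88), HIST1H2AK (-0.79), HIST1H2AC (-0.66) and HIST2H2BE (-0.53) were lower. With AraC 0 members were higher and 2 lower than with hydroxyurea (15.4% and 8.24%), HIST1H2BH (-1.17) and HIST3H2A (-0.89). HIST2H2BE differed by 0.02 ± 0.06 between these 2 agents. These counts were unstable, since leaving out 1 day at a time gave 0 to 2, 0 to 4 and 0 to 2 called members, with 0 without day 3 in each pair.

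Vincristine, which blocks microtubule assembly, raised 26 members and lowered 2, where 33.1% of all genes were higher and 37.9% lower. HIST1H4E had 7, 2.01, 6.98, 24.9 and 10.8 TPM on days 1, 2, 3, 4 and 6, a rise of 1.81 ± 0.38, and HIST1H1C had 25.2, 26.03, 39.6, 12.2 and 65.6 TPM, a rise of 0.82 ± 0.16. HIST2H2BE was lower, by -0.36 ± 0.08. The day 4 library stood apart from the rest of the series, with 17188 genes at 1 TPM and a member sum of 935.7 TPM, against 290 to 359.5 TPM in non-toxic libraries of that day. Its neural progenitor markers summed to 746.4 TPM, against 4714 to 5146 TPM, its pluripotency markers to 645.2 TPM, against 28.9 to 42.7 TPM, and its endothelial markers to 176.7 TPM. In it HIST1H2AD stood at 40.1 TPM and HIST3H2A was listed at 0. Without it 16 members were called, and HIST1H1E (0.43) and HIST1H2AD (0.57) no longer passed, against 1.19 and 1.45 with it.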

How the data were processed

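RNA of 414 H1-NPC wells was sequenced, and the authors deposited 1 TPM value per gene symbol and library. CASAVA 1.8.2, Bowtie 0.12.8, RSEM 1.2.1 and hg19 are named, per the submitters' processing notes. Each library summed to 999999 to 1000001 TPM, so a value is a share of its library, and read counts, and with them counting error, are unknown. The 16318 genes with 1 TPM in at least 5 libraries were tested as log2(TPM + 1), a scale that understates changes of low genes, with limma 3.58.1 (R 4.3.3) and an intensity trend. P-values were adjusted over all 16318 genes, with calls at 0.05. Compound fits had a term for day and treated compounds as a random effect (consensus correlation 0.0212), and class fits used 1 value per compound. The fits were tested on simulated data.

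Genes were named by rule: HIST1H4E and HIST1H1E, the highest gene of each histone class, and the called members with the largest changes in each comparison. The members, lists and rule were chosen with earlier results of these data known. Members named for their number of calls or their course over days, such as HIST1H4A, HIST4H4, HIST1H2AC and HIST1H2BK, were chosen after their values were seen. Alternatives were another pseudocount, no filter, centring, the length trend as a covariate, libraries or days left out, and other blocks. Of 10328 genes averaging 10 TPM or more, 9610 (93.05%) had a transcript length for the length trend.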

Additional observations from a re-analysis of the deposited data

Results flagged for a closer look

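In 73 groups, each of 1 member in 4 to 10 libraries of 1 compound, 8 had a library far from the others of its group. Chance gives about 1 in 20 groups if groups are independent. Groups of the same compound share their wells, so the count of 8 cannot be judged against that rate. Values are log2 differences from the same-day non-toxic mean. The vincristine library of day 4 stood apart for HIST1H1E (4.24), HIST1H4K (2.47) and HIST3H2A (-5.18). Among okadaic acid libraries day 2 stood apart for HIST1H4E (1.68), and day 4 for HIST1H3D (-0.62) and HIST1H4K (-3.28). Day 2 of cadmium stood apart for HIST1H4K (-4.32), which was listed at 0 there while HIST1H4J had 19.4 TPM, and day 2 of busulfan for HIST2H2BE (-0.19).

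For 7 members and 21 compounds the late difference from non-toxic libraries (days 8 to 39) was compared with the early one (days 1 to 6). Of these differences 14 passed limma's test of the difference itself. Over all genes 7.43% of such tests were higher late and 6.84% lower late, so these 14 do not set the members apart. HIST1H1E was higher late with amiodarone (1.04), Bis-I (0.90) and dioxin (1.17). HIST1H4E was higher late with benzene (1.41) and monosodium glutamate (1.33). HIST1H3E was higher late with (trans) retinoic acid (0.94), Accutane or Isotretinoin (1.00) and monosodium glutamate (0.85), and HIST1H1C with hydroxyurea (0.92). HIST2H2BE was higher late with monosodium glutamate (0.35) and U0126 (0.41) and lower late with K252a (-0.35). HIST3H2A was lower late with dioxin (-0.40) and K252a (-0.52).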

How the results depend on the processing

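Depth is unknown and 1 well stands for a compound on a day, which limits all low members. Of 2469 alternative values of 199 single-gene results, 2194 kept direction and call, 236 lost the call, 26 gained one and 13 changed direction. Where no value shows a cause, the cause was not tested.

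With a pseudocount of 0.1 the early class count was 0, hydroxyurea called 3 members, AraC against hydroxyurea 1, the toxic compounds had 143 higher calls, and the late against early tests 24 higher and 11 lower. Without a filter the early class count was 0, AraC against 5-fluorouracil and hydroxyurea against 5-fluorouracil called 1 each, AraC against hydroxyurea 0 and cadmium against arsenic 12. After centring hydroxyurea called 8 and the non-toxic compounds had 5 higher and 0 lower calls, and with cadmium HIST1H3E (0.65), HIST2H2BE (0.16) and HIST3H2A (0.20) changed direction. Without the intensity trend AraC against hydroxyurea called 1.

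With the length trend as a covariate the class counts were 0 early and 6 late, and arsenic called 19, busulfan 5, cadmium 21 and okadaic acid 10. All 3 pairs of AraC, hydroxyurea and 5-fluorouracil called 0, and non-toxic compounds 0 higher and 0 lower. HIST1H1C changed direction with arsenic (-0.76) and okadaic acid (-0.63), and HIST2H2BE with cadmium (0.072). Without libraries of a trend below -0.1 the late class count was 4, okadaic acid called 11, the cadmium trend 10, toxic compounds had 128 higher and 53 lower calls and non-toxic ones 0 and 0. There the cadmium trends of HIST1H4B (0.68) and HIST1H4F (0.44) changed direction.

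Without days 15 and 21 the late class count was 2, non-toxic compounds had 5 higher calls, and late against early tests 21 higher and 12 lower. Without ibuprofen hydroxyurea called 9 and non-toxic compounds 0 higher and 0 lower. The early class count was 0 with a trend on the mean deviation and without both retinoids. Without the random block hydroxyurea called 10. Without the vincristine library of day 4 and the carbamazepine library of day 10, an alternative chosen after the data were seen, vincristine called 16 and the late class comparison 1 lower. Without the 5-fluorouracil libraries of days 27 and 39, also chosen then, 5-fluorouracil called 6 and HIST2H2BE changed direction (-0.069).

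With compound as a replicate block, the time comparisons gave 7 higher and 21 lower members for day 10 against day 1 and 2 and 33 for day 39 against day 10. Without day as a replicate block the pairs called 2 (AraC against 5-fluorouracil), 2 (hydroxyurea against 5-fluorouracil), 1 (AraC against hydroxyurea) and 18 (cadmium against arsenic).

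Leaving out 1 library gave 30 to 36 called members for arsenic, 3 to 11 for busulfan, 41 to 45 for cadmium, 7 to 13 for AraC, 12 to 20 for okadaic acid and 16 to 30 for vincristine. Pairs ranged over 6 to 25 (cadmium against arsenic), 0 to 2 (AraC against 5-fluorouracil), 0 to 4 (hydroxyurea against 5-fluorouracil) and 0 to 2 (AraC against hydroxyurea), and trends over 15 to 18 (AraC), 7 to 13 (busulfan) and 10 to 24 (cadmium). Trends that changed direction were HIST1H1C with busulfan (-0.030 to 0.72, lowest without day 6), HIST2H2BE with cadmium (-0.17 to 0.41, lowest without day 1), and HIST1H4B (-0.41 to 0.11) and HIST1H4F (-0.41 to 0.044) with cadmium, highest without day 6.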

Other observations

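Maneb, with 1 library on day 1 and hence no test, had 27.1 TPM of HIST1H1B, 26.7 TPM of HIST1H1E and 23.7 TPM of HIST1H4E, against non-toxic means of 0.323, 0.588 and 2.60 TPM. The carbamazepine library of day 10 held the highest HIST1H4E value among the toxic libraries, 41.3 TPM. HIST1H1C reached 80.2 TPM with L-phenylalanine on day 27, beside 44.2 TPM on day 21, 1.8 TPM on day 15 and 9.15 TPM on day 39 with the same compound.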
